A study of Mus musculus with 4 samples.

Results

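The genes described here are 32 genes that mark the endothelial cells of mouse liver, among 31709 genes on the array. They were chosen as known genes of these cells, at a time when earlier results of these data were known. A probe counted as a member's when its name in the files, or the symbol of its RefSeq accession, was one of the 32. All 32 members were on the array, with 37 probes in all (27 members had 1 probe and 5 had 2). They fall into 9 genes of the sinusoidal cells, 19 genes shared by endothelial cells in general (pan-endothelial) and 4 secreted signals that endothelial cells send to hepatocytes (angiocrine).

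Liver RNA of 4 male IlrunKO mice was compared with that of 4 male wild-type (WT) mice on 4 two-colour Agilent arrays, each array holding 1 sample of each genotype. Ilrun, named for its part in inflammation and lipid regulation, was lost in the whole body of the IlrunKO mice, so the loss covers endothelial cells, hepatocytes and all other cells alike. Both genotypes were on the C57BL/6 background, on a chow diet and without food for 4 h before sampling. The labels used here do not state age, the design of the Ilrun allele or any pooling of mice. IlrunKO RNA carried Cy5 on arrays 1 and 2 and Cy3 on arrays 3 and 4.

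The walls of the liver sinusoids are made of endothelial cells with open pores and no basement membrane. Their scavenger receptors take up hyaluronan, modified lipoproteins and other debris from blood, a duty that other endothelial cells do not share to this extent. Through BMP ligands the sinusoidal cells set hepcidin and so iron balance, and through WNT ligands and R-spondin the endothelium around the central vein sustains the gene programme of the nearby hepatocytes.

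Each value below is a log2 ratio of IlrunKO over WT, and a gene is said to have passed where limma gave an adjusted p under 0.05. The brighter Ilrun probe, at chromosome 17, 27888506 to 27888565 (mm9), had ratios of -4.12, -4.11, -4.04 and -4.56 on arrays 1 to 4. The dimmer one, at 27930857 to 27930916, had ratios of -2.02, -2.18, -1.78 and -2.59. Both were far lower in the channel labelled IlrunKO on every array. Well above background were 60.0% to 64.5% of probes in the IlrunKO channels and 61.0% to 67.3% in the WT channels. All 12 hepatocyte markers listed as a check of the tissue were well above background in all 8 channels. Across genes, ratios of array pairs correlated at r = 0.379 and 0.529 within a dye orientation and at 0.107 to 0.351 between orientations, a description over genes, which are not independent replicates.

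The ratio of each member was read by a probe of 60 bases. The first 30 bases of 6 probes are shown, those of the 4 angiocrine signals and of Oit3 and Mmrn2, which had the smallest p among sinusoidal and pan-endothelial genes. The sequences are written 5′ to 3′ as in the deposited files.
Bmp2: cccttccagggggctgatctggccaaagta
Rspo3: ggatactactttctaacaaggtgtatctag
Wnt2: gagaatctgaaaggggaatggatgatctag
Wnt9b: tgtctttctagccaaagcttcctctctcaa
Oit3: gactaagagcataactcatgatctcctaga
Mmrn2: actgtttctcagaaggaatgtctacagtga
Positions of these probes in mm9, as the files give them, are chr2:133388260-133388319 for Bmp2, chr10:29172930-29172989 for Rspo3, chr6:17938994-17939053 for Wnt2, chr11:103588882-103588941 for Wnt9b, chr10:58886254-58886313 for Oit3 and chr14:35216855-35216914 for Mmrn2. No annotation of that build was at hand, so exon, intron and UTR were not assigned.

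No endothelial member passed the test for a difference between IlrunKO and WT liver. Of the 32 members, 31 were bright enough to be tested, all on 4 arrays, and 0 passed in limma, where 1.37% of the 19672 genes tested passed (0.717% higher and 0.656% lower). Their adjusted p ran from 0.0784 to 0.984. The 95% intervals of all 31 lay within 0.5 of 0 on the log2 scale. The lowest bound was -0.47 for Bmp2, a level 1.39-fold lower in IlrunKO liver, and the highest was 0.33 for Lyve1, a level 1.26-fold higher. Ratios of 2-fold thus lay outside the intervals of this fit, which hold for its processing (background offset of 50). From Agilent's processed signals the ratios of the dim genes Wnt9b (0.34) and Flt4 (-0.28) lay outside their own intervals in this fit.

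Small differences leaned one way among the members. Their fitted ratios were below 0 for 26 of 31 members (83.9%), against 50.6% of all genes tested, and the median was -0.082 over members and -0.0014 over all genes. At an unadjusted p under 0.05, 6 members (19.4%) were lower and 0 higher, against 20.5% of all genes, 9.86% lower and 10.6% higher. The ratio was below 0 on 4 of 4 arrays for 7 members (22.6%), against 11.5% of all genes. The lean was uneven over arrays: 22, 15, 24 and 20 of the 31 members were below 0 on arrays 1 to 4, with medians of -0.13, 0.0024, -0.11 and -0.069. Without array 1 the count below 0 was 20 of 31 and the median was -0.035. The members were chosen with earlier results of these data known, so the lean has no test here. In whole-liver RNA, fewer endothelial cells and less RNA per endothelial cell cannot be told apart.

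**Figure D1:**
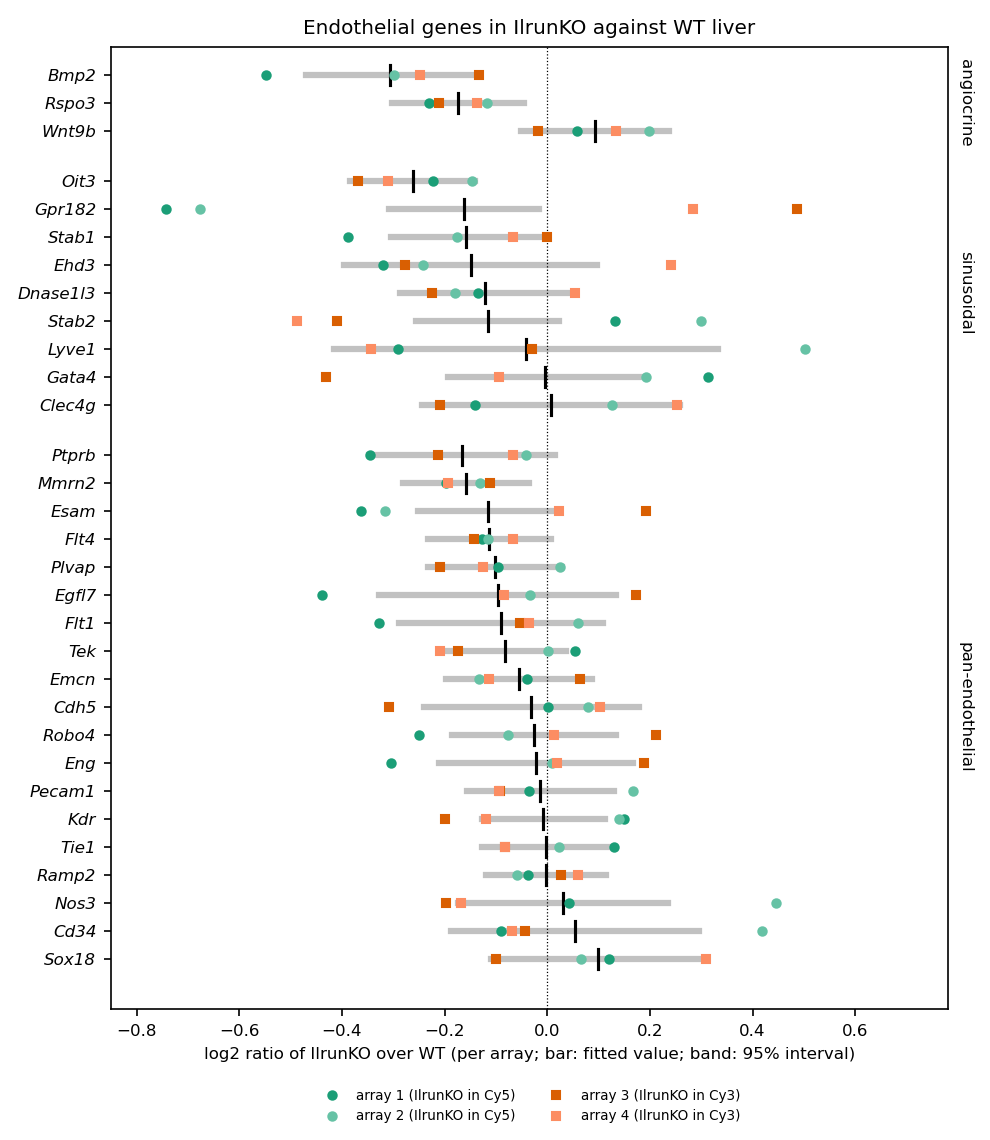
Log2 ratio of IlrunKO over WT for the 31 endothelial members tested, grouped by role; points are the 4 arrays, coloured by array and shaped by dye orientation, black bars are fitted values and grey bands their 95% intervals. Fitted values of 26 of 31 members lie below 0, Bmp2 and Oit3 lie furthest below, and the points of Gpr182 and Stab2 split by dye orientation.

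The angiocrine signals were considered first. Bmp2 encodes a ligand by which sinusoidal cells drive hepcidin in hepatocytes. Its log2 signals were 9.34, 9.38, 9.58 and 9.58 in IlrunKO liver, against 9.89, 9.68, 9.72 and 9.82 in WT liver on arrays 1 to 4. All 4 IlrunKO signals lay under all 4 WT signals. The ratios were -0.55, -0.30, -0.13 and -0.25, giving a fitted ratio of -0.31 ± 0.175 (SD, n = 4), or 1.24-fold lower, with a 95% interval from -0.47 to -0.14 and an adjusted p of 0.0944 in limma. Bmp2 had the most negative ratio of the members tested and did not pass.

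Rspo3, an amplifier of WNT signalling made around the central vein, had log2 signals of 7.90, 8.21, 8.10 and 8.05 in IlrunKO liver, against 8.13, 8.33, 8.31 and 8.18 in WT liver. The IlrunKO signal was under the WT signal on every array, although the ranges of the genotypes overlapped. The fitted ratio was -0.17 ± 0.0556 (SD, n = 4; adjusted p = 0.159 in limma), with the same mean of -0.17 in either dye orientation.

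Wnt9b, a WNT ligand of central vein endothelium, had log2 signals of 6.86, 6.78, 6.70 and 6.79 in IlrunKO liver, against 6.80, 6.58, 6.72 and 6.65 in WT liver. The genotypes overlapped, with IlrunKO above WT on arrays 1, 2 and 4, and the fitted ratio was 0.093 ± 0.0932 (SD, n = 4; interval from -0.051 to 0.24, adjusted p = 0.423 in limma). From Agilent's processed signals the Wnt9b ratio was 0.34 (adjusted p = 0.194). Wnt2, the other WNT ligand of this endothelium, was well above background in 0 of 4 IlrunKO channels and 1 of 4 WT channels. It was the member left untested, and no fold is given for it.

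Among the sinusoidal genes, Oit3, a secreted protein that marks these cells, had the smallest p of all members. Its log2 signals were 10.80, 10.89, 10.76 and 10.88 in IlrunKO liver, against 11.03, 11.04, 11.13 and 11.19 in WT liver, so the genotypes did not overlap. The ratios were -0.22, -0.15, -0.37 and -0.31, with a fitted ratio of -0.26 ± 0.0976 (SD, n = 4), or 1.20-fold lower, a 95% interval from -0.38 to -0.14 and an adjusted p of 0.0784 in limma. It did not pass.

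Stab1 and Stab2 encode related scavenger receptors of sinusoidal cells. Stab1 had log2 signals of 10.01, 10.04, 10.25 and 10.18 in IlrunKO liver, against 10.40, 10.22, 10.26 and 10.25 in WT liver. With IlrunKO in Cy5 its ratios were -0.39 and -0.18, with IlrunKO in Cy3 they were -0.0010 and -0.066, with a fitted ratio of -0.16 (adjusted p = 0.223 in limma), so most of the difference came from the arrays with IlrunKO in Cy5. Stab2 had log2 signals of 12.38, 12.45, 12.16 and 12.22 in IlrunKO liver, against 12.25, 12.15, 12.57 and 12.70 in WT liver. Its ratios pointed up on arrays 1 and 2 (0.13 and 0.30) and down on arrays 3 and 4 (-0.41 and -0.49), and the fitted ratio was -0.12 (interval from -0.25 to 0.022, adjusted p = 0.308 in limma).

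Gpr182, a chemokine-binding receptor of sinusoidal cells, split by dye more than any other member. Its log2 signals were 10.95, 11.15, 11.54 and 11.30 in IlrunKO liver, against 11.70, 11.83, 11.05 and 11.02 in WT liver. The mean ratio was -0.71 with IlrunKO in Cy5 and 0.39 with IlrunKO in Cy3, so the Cy3 channel was the brighter on all 4 arrays. The fitted ratio of -0.16 had an adjusted p of 0.209 with the dye term in limma and of 0.838 without it. Opposite signs in the 2 orientations were seen in 17 of 31 members (54.8%) and in 48.7% of all genes tested.

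The other 5 sinusoidal genes each had ratios of both signs over the 4 arrays. Lyve1, a hyaluronan receptor, had ratios of -0.29, 0.50, -0.031 and -0.34 and the widest interval of the members (-0.41 to 0.33). Clec4g, a C-type lectin of sinusoidal cells, had ratios of -0.14, 0.13, -0.21 and 0.25 and a fitted ratio of 0.0073 (interval from -0.24 to 0.26). Both genes pointed up on some arrays and down on others. Ehd3, which acts in endocytic recycling, had ratios of -0.32, -0.24 and -0.28 on arrays 1 to 3 but 0.24 on array 4. Dnase1l3, a secreted DNase, had ratios of -0.13, -0.18, -0.23 and 0.053. Gata4, the transcription factor that maintains sinusoidal identity, had ratios of 0.31, 0.19, -0.43 and -0.094, turning with the dye orientation like Stab2, and a fitted ratio of -0.0049 (interval from -0.19 to 0.18). Over the 9 sinusoidal genes, 8 ratios were below 0 and the median was -0.12.

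**Figure D2:**
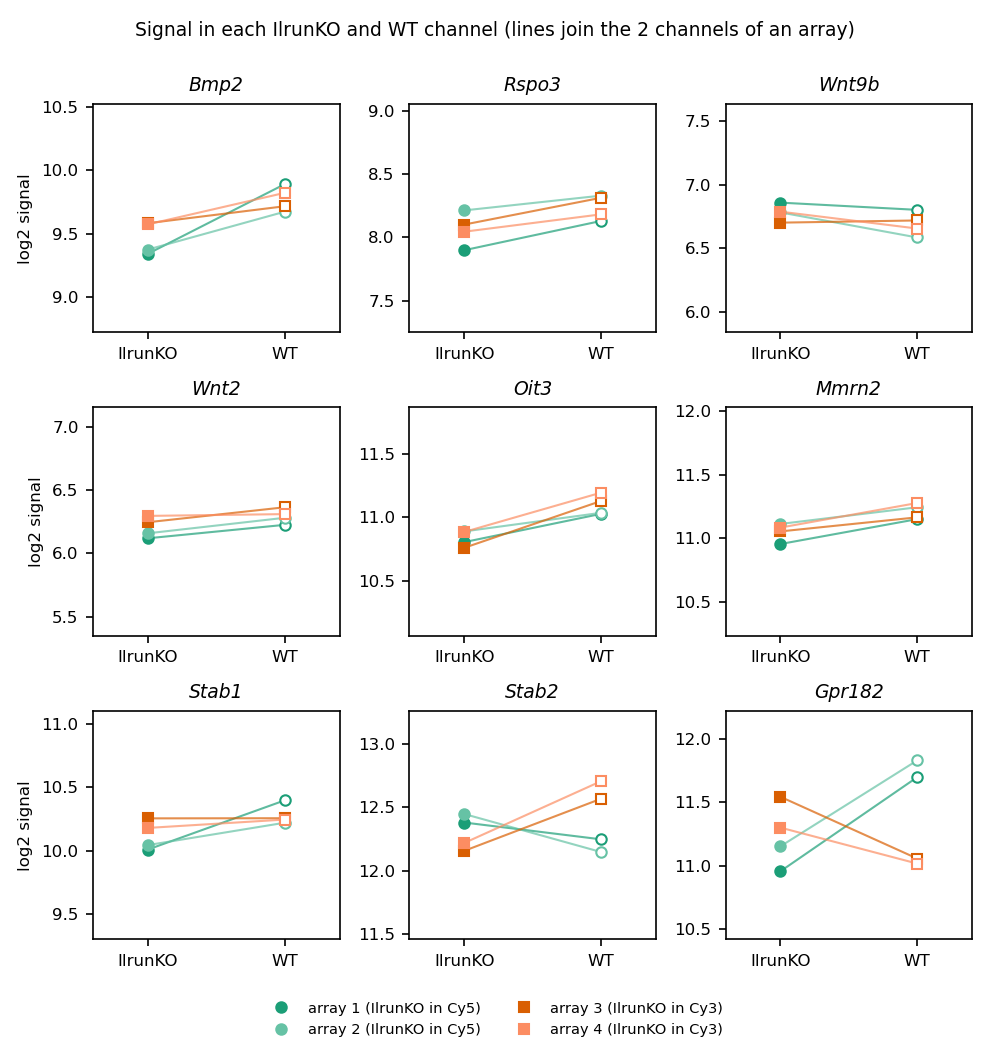
Log2 signal of 9 members in each IlrunKO channel (filled) and WT channel (open) after normalisation within and between arrays; lines join the 2 channels of an array, and each panel spans the same range of log2 units. All IlrunKO signals lie under all WT signals for Bmp2, Oit3 and Mmrn2, while the lines of Stab2 and Gpr182 cross between dye orientations.

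The pan-endothelial genes lay closer to 0, with a median of -0.031 over 19 genes, of which 16 were below 0. Leaving out array 1, 2 or 3 moved that median to -0.0097, -0.070 or -0.075. Mmrn2, a glycoprotein of the matrix around vessels, had the smallest p among them. Its log2 signals were 10.96, 11.11, 11.05 and 11.09 in IlrunKO liver, against 11.15, 11.25, 11.17 and 11.28 in WT liver, without overlap, and its fitted ratio was -0.16 ± 0.0434 (SD, n = 4; adjusted p = 0.171 in limma). IlrunKO signals lay under all WT signals in 4 of 31 members (12.9%), namely Bmp2, Oit3, Mmrn2 and Flt4, and in 4.22% of all genes tested. The opposite order was seen in 0 members and in 4.85% of all genes.

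Among receptors, Flt4, which binds VEGF-C and VEGF-D, had ratios of -0.13, -0.12, -0.14 and -0.066, a narrow spread around a fitted ratio of -0.11 (SD 0.0329, n = 4; adjusted p = 0.265 in limma). Its signals were 6.77 to 6.89 in IlrunKO liver and 6.90 to 7.02 in WT liver, and from Agilent's processed signals its ratio was -0.28 (adjusted p = 0.189). At their brightest probes the other VEGF receptors were nearer to 0, with Flt1 at -0.090 and Kdr at -0.0073 (interval from -0.13 to 0.11). A second Kdr probe of similar brightness stood at -0.15. The Flt1 ratio rested on array 1 (-0.33) and was 0.0074 without it. Tek, the angiopoietin receptor, had ratios of 0.054, 0.0024, -0.17 and -0.21, while Tie1, its partner, stood at -0.0028. Ptprb, the phosphatase that restrains Tek, had ratios of -0.34, -0.042, -0.21 and -0.067 and a fitted ratio of -0.17 (adjusted p = 0.275 in limma). Ramp2, part of the adrenomedullin receptor, Eng, a co-receptor for BMP and TGF-beta ligands, and Robo4, a guidance receptor of vessels, stood at -0.0028, -0.022 and -0.026.

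The junction genes Cdh5 and Pecam1 stood at -0.031 (interval from -0.24 to 0.18) and -0.013 (interval from -0.16 to 0.13). Esam, another adhesion molecule of junctions, had ratios of -0.36 and -0.32 with IlrunKO in Cy5 and of 0.19 and 0.024 with IlrunKO in Cy3. Plvap, which forms the diaphragms of pores and caveolae, had ratios of -0.096, 0.026, -0.21 and -0.13. Egfl7, a secreted regulator of vessel shape, and Emcn, a surface mucin, stood at -0.096 and -0.055, and without array 1 the Egfl7 ratio was 0.0052. The 3 members above 0 in this group were Sox18, an endothelial transcription factor, at 0.099, the surface mucin gene Cd34 at 0.054 and Nos3, the endothelial nitric oxide synthase, at 0.030, none of which passed in limma. The Cd34 ratio rested on array 2 (0.42), since the other arrays gave -0.090, -0.044 and -0.069.

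Second probes were present for 5 members. The dimmer Kdr probe, at chr5:76329309-76329368, had ratios of -0.12, -0.053, -0.31 and -0.12 and a fitted ratio of -0.15 (adjusted p = 0.227 over all probes in limma), against -0.0073 at the brighter probe, chr5:76330395-76330454. Its 4 ratios share a sign, whereas those of the brighter probe followed the dye orientation. Dimmer probes of Ptprb, Plvap and Nos3 had fitted ratios of -0.054, -0.073 and 0.0018, also without passing. The second Cd34 probe was well above background in 0 of 8 channels and was not tested.

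A wider list of endothelial genes did not share the lean. Of 49 further genes of these cells, 46 were tested, 0 passed in limma, 23 were below 0 and 23 above 0, and the median was -0.00093. The 3 with the smallest p were Tmem204 at -0.26 (adjusted p = 0.164), the sinusoidal transcription factor gene Meis2 at -0.19 (adjusted p = 0.186) and the ephrin receptor gene Ephb4 at -0.16 (adjusted p = 0.192). At an unadjusted p under 0.05, 4 of the 46 were lower and 2 were higher, against 9.86% of all genes lower and 10.6% higher. The wider list was dimmer, with mean log2 levels of 8.22 to 8.34 in IlrunKO liver and 8.23 to 8.32 in WT liver. Those of the members were 9.54 to 9.64 and 9.63 to 9.73. Whether the members and the wider list differ was not tested.

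Genes at the other end of these signals were examined as well. Of 14 ligands of endothelial receptors, 11 were tested, 0 passed in limma, 9 were below 0, and the median was -0.15. Vegfc and Vegfd, the ligands of Flt4, had ratios of -0.18, -0.23, -0.17 and -0.22 and of -0.31, -0.75, -0.62 and -0.24, below 0 on every array, with fitted ratios of -0.20 and -0.48 and adjusted p of 0.113 and 0.101. Cxcl12, a chemokine, stood at -0.21 (adjusted p = 0.143). At an unadjusted p under 0.05, 5 of the 11 ligands were lower and 0 were higher, against 9.86% of all genes lower and 10.6% higher.

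Target genes of WNT and BMP signalling showed no common direction. In whole-liver RNA, the cells that these transcripts came from were not tested. All 18 pericentral WNT targets were tested and 0 passed in limma, with 9 below 0, 9 above 0 and a median of -0.014. Rhbg, an ammonium transporter, stood at 0.76 (adjusted p = 0.0994), the transcription factor gene Tbx3 at 0.30 (adjusted p = 0.102) and Znrf3, a WNT feedback inhibitor, at -0.24 (adjusted p = 0.106). All 9 BMP targets were tested and 0 passed, with 3 below 0 and a median of 0.076. Hamp, the hepcidin gene, had ratios of 0.53, 0.22, -0.93 and -0.21, turning with the dye orientation. Its fitted ratio was -0.096 (interval from -0.44 to 0.25), while Smad7, a feedback inhibitor, stood at -0.13. The BMP target genes Id1 and Id3 had ratios of 0.10, 0.47, 0.75 and 1.31 and of -0.096, 0.61, -0.050 and 0.84, with fitted ratios of 0.66 and 0.33 and adjusted p of 0.0768 and 0.408.

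**Figure D3:**
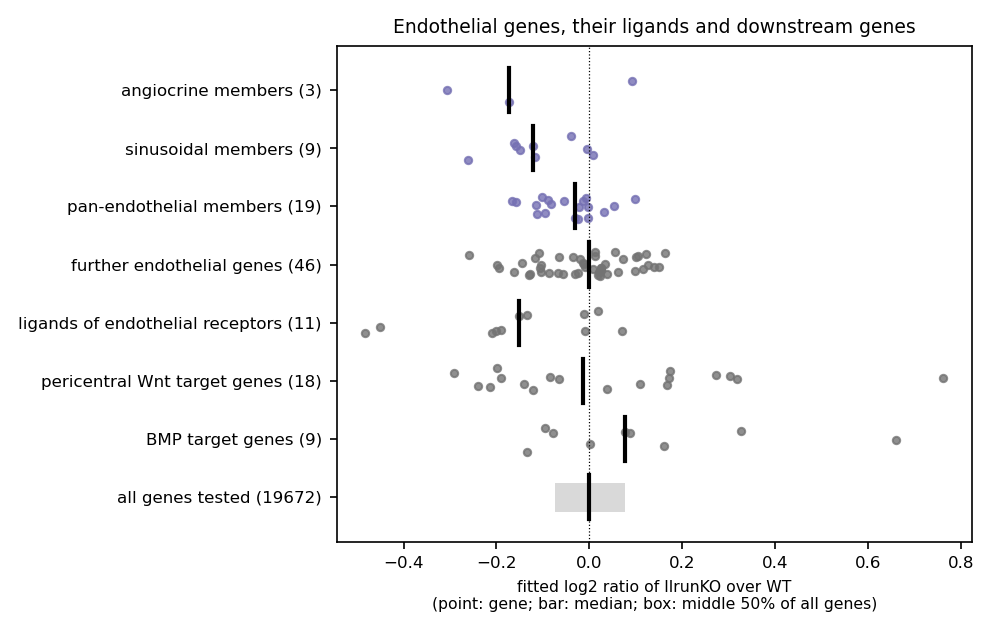
Fitted log2 ratio of IlrunKO over WT for each gene of 7 lists, with the number tested in brackets, black bars for medians and, for all 19672 genes, a box over the middle 50%. Medians were -0.17, -0.12 and -0.031 in the angiocrine, sinusoidal and pan-endothelial members and -0.00093 in the further endothelial genes.

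Markers of other liver cells were measured beside these values. All 12 stellate cell markers were below 0, with a median of -0.29 and 0 passing in limma. Unadjusted p was under 0.05 for 9 of the 12, all lower, against 9.86% of all genes lower. Below 0 on 4 of 4 arrays were 9 of the 12, against 11.5% of all genes. The mean log2 level of the stellate markers was 8.59 to 8.92 in IlrunKO liver and 8.85 to 9.19 in WT liver. That of the endothelial members was 9.54 to 9.64 and 9.63 to 9.73. Colec11, Hand2 and Lrat, which encode a collectin, a transcription factor and the enzyme that stores retinol, stood at -0.34, -0.31 and -0.49 (adjusted p of 0.0528, 0.0783 and 0.083).

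Kupffer cell markers were above 0 in 11 of 12 cases, with a median of 0.41 and 0 passing in limma, and had mean log2 levels of 10.76 to 11.29 in IlrunKO liver and 10.43 to 10.94 in WT liver. Cd68, Cd5l and Marco, a lysosomal protein, a secreted macrophage protein and a scavenger receptor, stood at 0.21, 0.58 and 1.33 (adjusted p of 0.116, 0.221 and 0.228). The Kupffer median was -0.25 on array 1 and between 0.47 and 0.83 on the others. Hepatocyte markers were below 0 in 10 of 12 cases, with a median of -0.20, 0 passing and array medians of -0.059, 0.13, -0.34 and -0.39; the plasma protein genes Trf, Alb and Apoa1 stood at -0.62, -0.36 and -0.37 (adjusted p of 0.0738, 0.0856 and 0.0941). Mean hepatocyte levels were 15.62 to 15.99 in IlrunKO liver and 15.85 to 16.11 in WT liver. Unadjusted p was under 0.05 for 5 Kupffer markers higher and 0 lower, and for 7 hepatocyte markers lower and 1 higher. Of all genes, 9.86% were lower and 10.6% higher by that rule. All markers of these 3 lists were well above background in all 8 channels, and their part in the endothelial values was not tested.

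**Figure D4:**
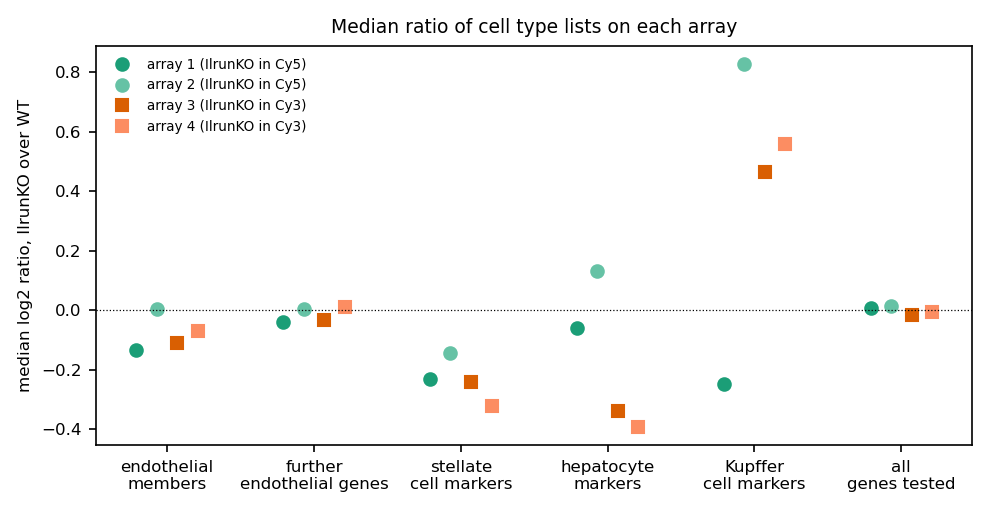
Median log2 ratio of IlrunKO over WT on each array for the endothelial members, the further endothelial genes, markers of 3 other liver cell types and all genes tested. Medians of the endothelial members lie between -0.13 and 0.0024, those of the further endothelial genes between -0.040 and 0.011, and Kupffer medians between -0.25 and 0.83.

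The call depended on the model for the leading members. A separate-channel model, which fits the 8 channel signals with a correlation of 0.517 between the 2 channels of a spot (estimated over all genes), called Bmp2, Oit3 and Mmrn2 lower (adjusted p of 0.00915, 0.00522 and 0.0400). That is 3 of 31 members (9.68%), against 5.97% of all genes called lower by it. At an adjusted p under 0.1 in the ratio model, Bmp2 and Oit3 were lower, 2 of 31 members (6.45%), against 2.66% of all genes.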

How the data were processed

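Scanner output of each array was deposited, holding raw and processed intensity per spot and the log10 ratio of the dyes (Cy5 over Cy3); per the file headers it came from Agilent Feature Extraction 10.10.1.1 (design 026655, mm9). The authors' deposited table of values ran as IlrunKO over WT on every array (r = 0.973 to 0.988 with the log2 ratios used here, across probes above background; slopes 1.07 to 1.16; column medians -0.039, -0.043, 0.038 and 0.035), with its log base and centring not stated. The submitters' processing notes name limma, without settings.

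Here the raw intensity was turned into log2 ratios (limma 3.58.1, R 4.3.3): normexp background correction (offset 50), loess within arrays with 1377 control spots at weight 0, outlier spots left out, and spots of a probe averaged. Levels by channel were also quantile-normalised between arrays (Aquantile). Of 39429 probes, 26055 were named by RefSeq accession, 4125 by symbol or synonym, and 9249 as in the files; all 37 member probes matched by accession. The brightest probe stood for a gene, kept where well above background in 3 of 4 IlrunKO or 3 of 4 WT channels. Each gene was fitted with a dye and a genotype term (lmFit and eBayes, 2 residual and 2.84 prior degrees of freedom), and p-values, two-sided, were adjusted by Benjamini-Hochberg over 19672 genes. The dye term also takes up differences between arrays 1 and 2 and arrays 3 and 4. The number of arrays limits precision: the median half-width of a 95% interval was 0.147. The labels do not say whether mice were pooled, so p-values measure only the spread between these samples.

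Members and lists were chosen with earlier results of these data known. Every member is accounted for; array values are given for the angiocrine and sinusoidal genes and the 6 pan-endothelial genes with the smallest p, and from other lists the genes that passed or the 3 with the smallest p; other genes named were picked after their values were seen. The 18 alternatives covered background correction, normalisation, the dye term, dim-probe filters, probe choice, eBayes settings, channel-wise fitting and leaving out arrays. The fit was also run on simulated data drawn from its own model, with planted ratios larger than those of the members. That run gives no measure of the fit for ratios of the members' size.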

Additional observations from a re-analysis of the deposited data

Results flagged for a closer look

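Among 52 values tested (the 31 members and the medians of the lists), 2 members had 1 array far from the other 3 by Dixon's test, which chance flags in about 1 in 20 groups. Cd34 stood at 0.418 on array 2, against -0.090 to -0.044 on the other arrays. Ehd3 stood at 0.241 on array 4, against -0.32 to -0.24 on the other arrays. Without array 2 the fitted ratio of Cd34 was -0.073 in place of 0.054, and without array 4 that of Ehd3 was -0.28 in place of -0.15, with adjusted p of 0.689 and 0.202 in limma.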

How the results depend on the processing

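The values were recomputed under 18 alternatives and another threshold. No member was called higher under any of them, and members were called lower only in the separate-channel model (3) and at an adjusted p under 0.1 (2). The median over members was -0.147 with median centring, where the median of all genes was -0.050 and 65.1% of all genes were below 0; the cause was not tested. Under it the sinusoidal median was -0.25 and the pan-endothelial median -0.12, and with the mean of all probes of a gene the pan-endothelial median was -0.055. Leaving out each array in turn gave 0 to 0 members called higher, 0 to 0 called lower, 20 to 26 members below 0 and medians from -0.110 to -0.035, the weakest without array 1. Of 558 member values under the alternatives, 24 had the other sign, all for ratios that did not pass. In all 18, 16 of 31 members kept their sign, among them Bmp2, Oit3, Rspo3, Mmrn2, Stab1, Stab2, Gpr182 and Flt4. Dropping the dye term, other eBayes settings, array weights, dim-probe filters and the separate-channel model left fitted ratios unchanged, so no sign could turn. The single-array ratios of Stab2 and Gpr182 still split in sign by dye orientation. Array-wide counts of calls varied widely, from 1 gene (median centring, or without array 3 or 4) to 2491 genes (separate-channel model), against 270. The counts also lay over 1.5 times away with Agilent processed signals (80), without background correction (440), from the deposited table (450), with trended and robust eBayes (413) and without array 1 (465). The ratio fit is itself paired by array, each array holding 1 IlrunKO and 1 WT sample, and the separate-channel model is its other form. Wnt2 and the second Cd34 probe were too dim to measure.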

Other observations

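Other vessel-related and cell type lists gave these values. Of 5 lymphatic endothelial genes, all 5 were tested and 0 passed in limma, with a median of -0.017. The probe of the lymphatic chemokine gene Ccl21a may also read its near-identical copies. Its ratios were 0.63 and 0.78 with IlrunKO in Cy5 and -0.31 and -0.20 with IlrunKO in Cy3. Prox1 and Reln stood at 0.30 and -0.14. Reln is also among the stellate cell markers above, and the cells these transcripts came from were not tested. Of 9 adhesion and activation genes, 7 were tested and 0 passed, with a median of -0.054. Vcam1, the leukocyte adhesion molecule, had ratios of -0.55, 0.44, 1.29 and 0.78, Esm1 had -0.60, 0.15, -0.34 and -0.98, and Selp stood at 0.12.

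Nkg7, a granule protein gene of cytotoxic lymphocytes, was the single gene of all lists that passed: it fell, with ratios of -0.53, -0.53, -0.98 and -0.99 and a fitted ratio of -0.76 (adjusted p = 0.030 in limma), while the T and NK cell list as a whole had a median of -0.018 over 6 tested genes. Medians without a gene passing were -0.036 for 4 cholangiocyte markers, -0.053 for 3 B cell markers, -0.14 for 5 neutrophil markers, -0.22 for 3 red blood cell markers, -0.056 for 4 smooth muscle markers and 0.0091 for 5 platelet markers.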
